A study of Bos taurus with 33 samples.

Results

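The insulin-like growth factor (IGF) receptors, IGF binding proteins, their protease and its inhibitors were described in oocytes and cumulus cells (CC) of beef cows. The 10 genes were IGF1R, INSR, IGF2R, IGFBP2, IGFBP3, IGFBP4, IGFBP5, PAPPA, STC1 and STC2, taken by gene symbol and joined between cell types by Ensembl identifier, out of 17543 genes listed for oocytes, CC or both. Each library was a pool of 4 oocytes or of the CC of 4 cumulus-oocyte complexes from suckled cows. Cows with small (up to 11.7 mm) or large (at least 12.7 mm) follicles were given gonadotropin-releasing hormone (GnRH) on day -9, prostaglandin F2 alpha on day -2 and a second GnRH on day 0, which induced the gonadotropin surge. Cows of the spontaneous classification had follicles of 11.7 to 14.0 mm, a range that overlaps that of the large follicles. They had the first GnRH and the prostaglandin, then displayed estrus with a surge of their own and had no second GnRH. Complexes were collected about 23 h (20 h in another field of the labels) after the second GnRH or estrus, and n was 6 small, 6 large and 4 spontaneous oocyte pools, and 6, 6 and 5 CC pools. Each of the 3 classifications therefore differs from the others in the source of the surge, follicle size or both, and pooling hides differences between cows.

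IGF1 and IGF2 are growth factors that signal through IGF1R, a receptor tyrosine kinase close in structure to the insulin receptor INSR, while IGF2R takes IGF2 up for degradation and carries no kinase. IGF binding proteins hold the ligands in the follicular fluid and limit their access to the receptors. PAPPA is a secreted metalloprotease that cuts IGFBP4, IGFBP5 and IGFBP2 and so frees the ligand, and the glycoproteins STC1 and STC2 bind and block PAPPA. In cattle, loss of the smaller binding proteins from follicular fluid is a known mark of the follicle that becomes dominant.

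Levels are given in CPM (read counts scaled to 1000000 reads on genes), and libraries held 7664375 to 17934916 such reads in oocytes and 1911600 to 5772431 in CC. Where a gene had 0 reads, its level could have reached 0.391 CPM in oocytes and 1.57 CPM in CC (3 reads in the smallest library, for counting error only). The 12 oocyte markers (GDF9, BMP15, ZP3 and others) summed to 9031 to 13085 CPM in oocytes, against 1.71 to 13.7 CPM in CC, where BMP15, ZP4, DDX4, KPNA7 and FIGLA had no reads or were not listed. The 12 cumulus and granulosa markers summed to 13621 to 34976 CPM in CC, against 564 to 4149 CPM in oocytes, all 12 with reads in both. Part of the oocyte sums came from genes that are not particular to CC in these libraries, since HAS2 had a higher median in oocytes (186 CPM) than in CC (50.5 CPM) and PTGS2 lay at 67.2 to 291 CPM in every oocyte pool. VCAN had the largest median of the 12 in both cell types, 15808 CPM in CC and 863 CPM in oocytes, and weighs heavily in every sum. Marker sums set beside single genes below are measurements, and the part of other cells in those genes' values was not tested. The 10 theca and stroma markers reached 605 to 4334 CPM in CC and 14.8 to 198 CPM in oocytes, the 7 of endothelium 7.38 to 73.5 and 93.5 to 153 CPM, the 8 of white blood cells 14.5 to 135 and 3.35 to 40.1 CPM, and the 5 of red blood cells at most 4.98 and 0.613 CPM. The theca and stroma genes differed in CC. CYP17A1 had at most 0.781 CPM, while INSL3, LUM, COL1A1 and PDGFRA had at least 33.4 CPM in every pool. COL1A2 ran from 0 to 2117 CPM with a median of 4.31 CPM. In oocytes TEK and KDR had the highest medians of the endothelium list (82.4 and 25.3 CPM), and CDH5 and EMCN were not listed. Mitochondrially encoded genes took 12.4 to 42.9% of CC reads and 0.827 to 4.92% of oocyte reads. In pools of whole cells, fewer cells of a type and less RNA per cell cannot be told apart.

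Most of the axis was more abundant in CC. The median over pools was higher in CC for 8 of the 10 genes, higher in oocytes for IGFBP2 alone, and 0 in both for STC2, whereas over the 14980 genes listed in both cell types it was higher in CC for 47.8% and in oocytes for 44.2%. Only IGFBP4 had no overlap, with all 17 CC pools above all 16 oocyte pools, where 28.1% of the 14980 genes had no overlap in one direction or the other and 10.6% lay higher in CC. The tables of the cell types were scaled separately, so these levels were set side by side and not tested. Of the 10 genes, 6 passed the filter of 5 CPM in at least 4 pools in oocytes (all but IGFBP4, IGFBP5, PAPPA and STC2) and 8 passed that of 5 CPM in at least 5 pools in CC (all but IGFBP2 and STC2).

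**Figure D1:**
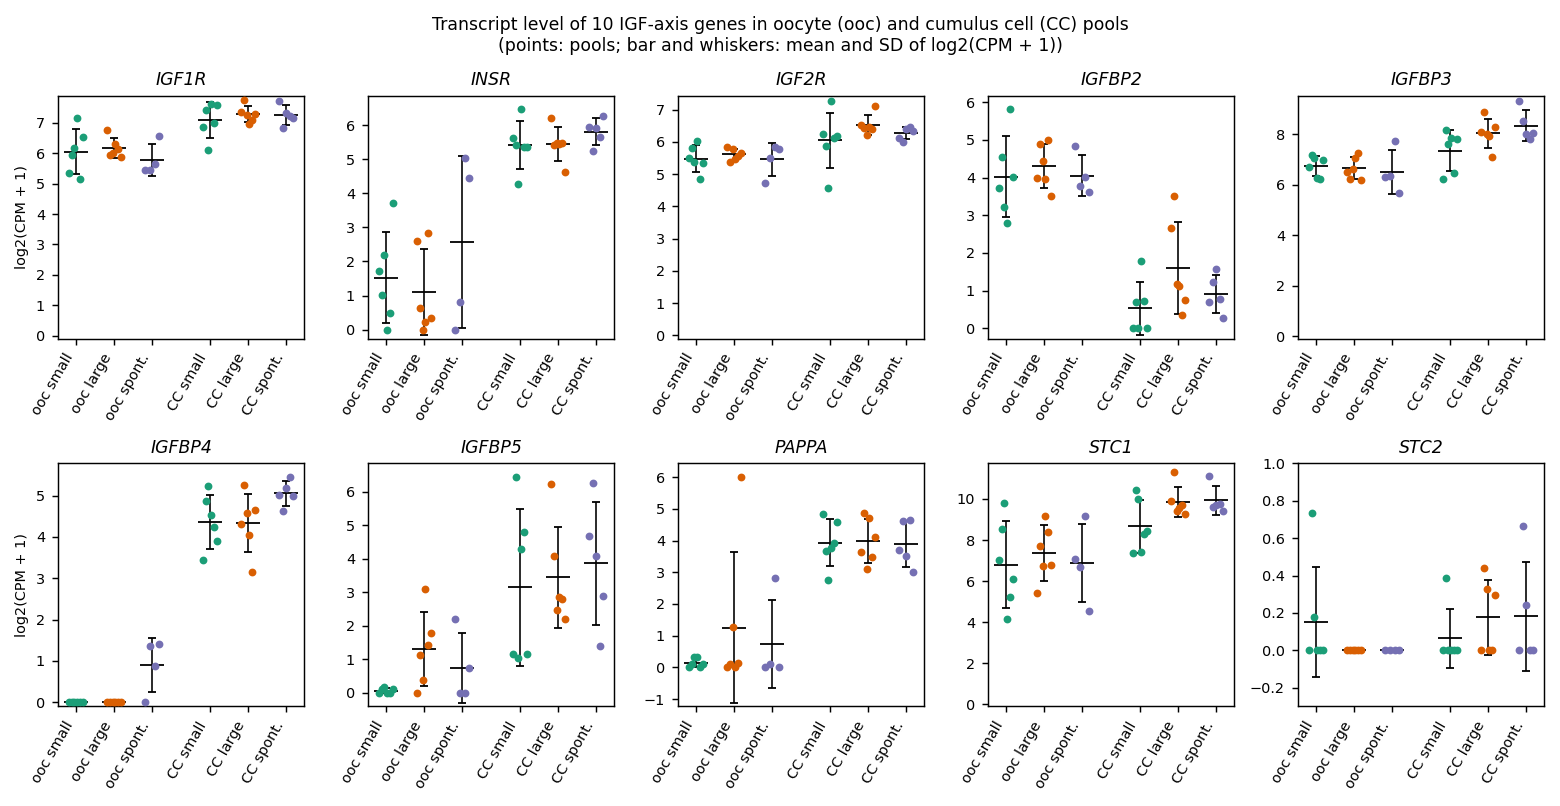
Level of the 10 genes on the log2(CPM + 1) scale (vertical axis) in every oocyte (ooc) and CC pool of the small, large and spontaneous classifications (horizontal axis), with points for pools and a bar and whiskers for mean and SD. IGFBP4 lay at 7.95 to 42.8 CPM in CC and at 0 to 1.67 CPM in oocytes, IGFBP2 was the gene with the higher median in oocytes, and STC2 stayed at or below 0.665 CPM in every pool.

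None of the 10 genes met the threshold for a difference between follicle classifications in either cell type. The threshold was a nominal p of 0.01 or less in limma, a linear model fitted over all retained transcripts on log2(CPM + 1), and in comparisons with small oocyte pools it had to hold without small replicate 3 as well. In oocytes the count was 0 of 6 retained genes in each comparison, where 0.655% of all 10076 retained transcripts met it for small and large follicles, 0.774% for small and spontaneous and 0.943% for large and spontaneous. In CC it was 0 of 8 in each, where 0.813%, 2.38% and 1.66% of 9712 transcripts met it, in the same order. An unadjusted p under 0.05 was reached by 0 of the genes in oocytes, where 4.11%, 4.51% and 4.87% of all transcripts reached it. In CC it was reached by IGFBP3 and STC1 from small to large (4.0% of all transcripts), by IGFBP3, STC1 and IGFBP4 between small and spontaneous (8.55%), and by IGFBP4 between large and spontaneous (7.07%). With edgeR and DESeq2 on the reads recovered from the CPM, the number of genes at the threshold was also 0 in all 6 comparisons. The p-values set the difference between classifications against the spread between pools, and comparisons that share a classification share its pools. By the study, oocyte and CC pools came from the same complexes, so comparisons in oocytes and in CC are not independent either.

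**Figure D2:**
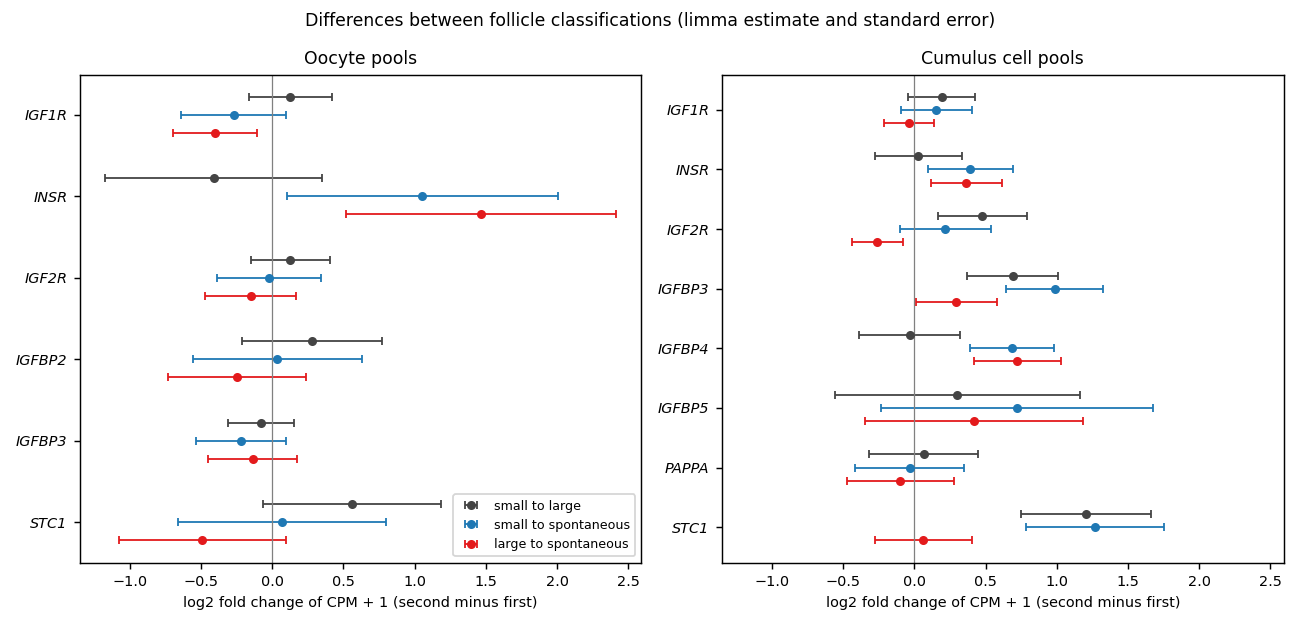
Log2 fold change of CPM + 1 (horizontal axis, second classification minus first) with its standard error for the retained genes (vertical axis) in oocyte pools (left) and CC pools (right), estimated by limma. The estimates for IGFBP3 and STC1 in CC lie at 0.69 to 1.27 from small to either other classification, and those of the receptors in CC lie between -0.26 and 0.48.

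IGF1R (ENSBTAG00000021527) was read in every pool. Small oocyte pools held 34.4 to 140 CPM (median 66.2), large pools 57.7 to 109 CPM (median 66.5), and the 4 spontaneous pools 42.9, 42.7, 49.0 and 93.2 CPM. The classifications overlapped throughout, with 3 of the 4 spontaneous pools below every large pool. The change from large to spontaneous was a log2 fold change of -0.40 (95% interval -1.004 to 0.20, limma adjusted p = 0.975), and that from small to large 0.13 (-0.47 to 0.73). In CC the range was 67.5 to 194 CPM (median 149) in small, 125 to 213 CPM (median 154) in large, and 209, 113, 160, 148 and 142 CPM in spontaneous pools. These too overlapped, and the largest of the 3 log2 fold changes in CC was 0.19, from small to large (-0.30 to 0.68, limma adjusted p = 0.999). The mean over CC pools was 152 ± 37.6 CPM (SD, n = 17) and rose to 192 CPM when the mitochondrially encoded genes were left out of the library size, beside 69.0 ± 28.2 CPM in oocytes (SD, n = 16), which became 70.1 CPM.

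INSR (ENSBTAG00000012687), which also forms hybrid receptors with IGF1R, was patchy in oocytes and even in CC. It had 0 reads in 1 pool of each classification of oocytes, a median of 1.65 CPM in small and 0.410 CPM in large pools, and a highest value of 12.1 CPM in small and 6.09 CPM in large pools. The spontaneous oocyte pools held 0, 0.742, 31.6 and 21.0 CPM, so 2 of the 4 lay above every small and large pool and the other 2 below the median of the small pools. The log2 fold change from large to spontaneous was 1.47, and its 95% interval ran from -0.48 to 3.41 (limma adjusted p = 0.968, exact permutation p of the mean CPM = 0.181). It was 0.65 without spontaneous replicate 3, 0.84 without spontaneous replicate 4 and 2.32 without spontaneous replicate 1, and 2.67 with edgeR. The 2 high spontaneous pools had cumulus marker sums of 2774 and 683 CPM, the latter below every small pool, and small replicate 6, at 12.1 CPM, had 812 CPM. In CC the range was 18.3 to 87.8 CPM (median 41.0) in small and 23.9 to 73.5 CPM (median 42.9) in large pools, and the spontaneous pools held 61.2, 36.7, 60.1, 49.4 and 76.1 CPM. The 3 classifications overlapped, with log2 fold changes of 0.03, 0.39 and 0.36 and intervals that all included 0.

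IGF2R (ENSBTAG00000002402), the scavenger of IGF2 and sorting receptor for lysosomal enzymes, spanned 25.6 to 64.3 CPM over the 16 oocyte pools. Small oocyte pools held 28.0 to 64.3 CPM (median 42.3), large pools 40.9 to 56.0 CPM (median 47.7), and spontaneous pools 25.6, 44.0, 56.9 and 53.5 CPM. No classification stood apart, and the log2 fold change from small to large was 0.13 (95% interval -0.44 to 0.70). In CC, small pools spread from 23.0 to 154 CPM (median 69.9), large pools from 73.3 to 139 CPM (median 86.4), and spontaneous pools held 69.2, 63.6, 82.8, 86.9 and 79.6 CPM. From large to spontaneous CC the log2 fold change was -0.26 (interval -0.64 to 0.12, exact permutation p of the mean CPM = 0.0996). Large replicate 6, the pool at 139 CPM, also had the highest sum of white blood cell markers (135 CPM, other large pools 14.5 to 42.4 CPM). Small replicate 4, the pool at 154 CPM, had a sum of 38.9 CPM. The next highest sums, 91.9 CPM in spontaneous replicate 2 and 68.5 CPM in small replicate 3, went with 63.6 and 23.0 CPM of IGF2R. The part of white blood cells in the IGF2R values was not tested.

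IGFBP2 (ENSBTAG00000005596), a binding protein cut by PAPPA, was the only one of the 10 genes with a higher median in oocytes than in CC. All 16 oocyte pools had at least 5.89 CPM, with medians of 13.7 CPM in small and 17.8 CPM in large pools, and 27.4, 12.8, 15.0 and 11.2 CPM in the spontaneous pools. Small replicate 5, at 55.2 CPM, lay above the other small pools (5.89 to 22.2 CPM). The 3 log2 fold changes in oocytes were 0.28 (95% interval -0.72 to 1.28) from small to large, 0.04 (-1.18 to 1.25) for spontaneous over small and -0.25 (-1.24 to 0.75) for spontaneous over large pools. CC pools held 0 to 10.3 CPM, and 15 of the 17 were at or below 2.43 CPM. The exceptions were large replicates 1 and 2, at 5.33 and 10.3 CPM, which had oocyte marker sums of 3.94 and 8.54 CPM. Small replicates 6 and 1 had sums of 13.7 and 8.59 CPM and 0 reads of IGFBP2. The part of oocyte material in the IGFBP2 values was not tested. The gene did not pass the filter in CC, and the exact permutation p from small to large CC was 0.143 (0.614 ± 0.941 and 3.18 ± 3.95 CPM, SD, n = 6 each).

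IGFBP3 (ENSBTAG00000003994), the main carrier of IGFs in plasma, gave the smallest limma p among the genes that passed the filter. Small CC pools held 74.8 to 286 CPM (median 211), large pools 136 to 468 CPM (median 265), and the 5 spontaneous pools 639, 372, 256, 223 and 267 CPM. Spontaneous pools 1 and 2 lay above every small pool, and the other 3 fell within the upper part of the small range. From small to spontaneous the mean was 183 ± 84.5 against 351 ± 170 CPM (SD), a log2 fold change of 0.99 (standard error 0.341, interval 0.27 to 1.70). Its nominal p was 0.01002, just over the threshold, with a limma adjusted p of 0.419. The exact permutation p of the mean CPM was 0.0476 (adjusted 0.731). From small to large the log2 fold change was 0.69 (0.02 to 1.36, limma adjusted p = 0.999), and from large to spontaneous 0.30 (-0.31 to 0.90). In limma the comparison from small to spontaneous met the threshold without small replicate 2 (adjusted p = 0.341), 4 (0.375) or 6 (0.292) or without spontaneous replicate 4 (0.605), and leaving out single pools moved the log2 fold change between 0.74 and 1.15. After median-of-ratios scaling it was 0.83 in limma (adjusted p = 0.777), and with edgeR 0.77 (adjusted p = 0.787). In oocytes the gene held 74.8 to 143 CPM in small (median 115) and 72.5 to 154 CPM in large pools (median 94.3). The spontaneous pools held 78.6, 80.8, 213 and 49.7 CPM, the highest and the lowest of all oocyte pools among them. No log2 fold change in oocytes lay beyond -0.22.

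A shift over the whole table went with these CC values. Taken over the 9712 retained CC transcripts, the log2 fold changes had a median of 0.16 for spontaneous over small, 0.11 for spontaneous over large and 0.05 for large over small pools, and of 0.01, 0.01 and -0.01 once scaled by median of ratios. The median over the 8 retained genes was 0.54, 0.18 and 0.25 in that order, without rescaling. Of the transcripts that met the threshold in CC, 221 of 231 were higher in spontaneous than in small pools (78 of 126 after median-of-ratios scaling), 141 of 161 higher in spontaneous than in large pools (62 of 116), and 67 of 79 higher in large than in small pools (44 of 70). Mitochondrially encoded genes took a median of 22.9% of reads in small, 21.0% in large and 15.3% in spontaneous CC pools, and cumulus and granulosa markers summed to a median of 20752, 28786 and 26870 CPM. VCAN was the largest part of these marker sums, and the study reported it as more abundant in large than in small CC. The part of these shares in the differences between CC classifications was not tested beyond the fits above and those without mitochondrially encoded genes.

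IGFBP4 (ENSBTAG00000008611), the preferred substrate of PAPPA, separated the cell types. It had 0 reads in all 12 small and large oocyte pools, and the 4 spontaneous oocyte pools held 0, 1.55, 0.834 and 1.67 CPM. The 3 spontaneous pools with reads therefore lay above every other oocyte pool, at up to 30 reads. The exact permutation p against either other classification was 0.0667, where the smallest that 6 against 4 pools can give is 0.00952, and the adjusted p was 1.0. The cumulus marker sums of spontaneous replicates 1 to 4 were 1197, 2137, 2774 and 683 CPM, and those of the 12 pools without an IGFBP4 read in the other classifications reached 4149 CPM. The part of CC material in these reads was not tested. When all transcripts with a read were entered in limma, IGFBP4 met the threshold against either classification. The log2 fold change was 0.91 (limma adjusted p = 0.899 from small and 0.897 from large), and 0.597% and 0.921% of all 16078 transcripts met the threshold in those fits. IGFBP4 entered them only through the spontaneous pools, and the other group had 0 reads in every pool and so no spread. The call is therefore no further support for a difference.

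In CC, IGFBP4 was read in all pools, at 9.81 to 36.6 CPM in small (median 20.0), 7.95 to 37.4 CPM in large (median 20.8), and 31.6, 23.6, 35.2, 42.8 and 30.9 CPM in spontaneous pools. The spontaneous pools filled the upper part of the range, with the lowest of them above the median of each other classification. From large to spontaneous the log2 fold change was 0.72 (standard error 0.306, interval 0.08 to 1.37, limma adjusted p = 0.662), and from small to spontaneous 0.69 (0.295, 0.07 to 1.31, limma adjusted p = 0.544). The exact permutation p was 0.0606 and 0.0563. Without large replicate 2 the first of these met the threshold (0.91, limma adjusted p = 0.365), and without small replicate 3 the second did (0.86, limma adjusted p = 0.301), while with edgeR they were 0.52 and 0.41 (adjusted p = 0.827 and 0.886).

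IGFBP5 (ENSBTAG00000007062), another substrate of PAPPA and the neighbour of IGFBP2 in RefSeq's gene order of the assembly ARS-UCD2.0, varied more among CC pools than between classifications. It ranged from 1.05 to 86.2 CPM in small (median 9.87) and from 3.61 to 75.1 CPM in large pools (median 6.11), and the spontaneous pools held 24.7, 76.5, 15.97, 1.63 and 6.39 CPM. One pool of each classification exceeded 75 CPM, and in small and in large CC it was far above the rest (others 1.05 to 26.95 and 3.61 to 16.02 CPM). The 3 log2 fold changes were 0.30, 0.72 and 0.42, each with a standard error above them. Spontaneous replicate 2 had the highest theca and stroma marker sum of all CC pools, 4334 CPM, and small replicate 2 and large replicate 1, the other pools above 75 CPM, had 1664 and 1651 CPM, beside 1756 CPM in small replicate 5, where IGFBP5 was 26.95 CPM. The part of theca and stroma in these values was not tested. In oocytes it was nearly unread in small pools (0 to 0.130 CPM, median 0.037), at 0 to 7.60 CPM in large (median 1.43) and at 3.65, 0, 0 and 0.669 CPM in spontaneous pools. Large replicates 2 to 6 lay above every small pool and large replicate 1 had no read, and the exact permutation p was 0.0152 (0.0484 ± 0.0563 and 2.21 ± 2.79 CPM, adjusted p = 1.0). The gene did not pass the filter in oocytes.

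PAPPA (ENSBTAG00000004010), the protease, was a gene of the CC. All 17 CC pools had reads, at 5.75 to 27.9 CPM in small (median 13.4), 7.64 to 28.5 CPM in large (median 14.0), and 12.1, 23.4, 10.3, 23.96 and 7.05 CPM in spontaneous pools. The classifications overlapped over nearly their whole ranges, and means were 15.9 ± 8.14, 16.6 ± 8.45 and 15.4 ± 7.8 CPM (SD). The log2 fold changes of 0.06, -0.03 and -0.10 had intervals of -0.73 to 0.86, -0.84 to 0.78 and -0.89 to 0.69. In oocytes more than 3 reads were found in 3 of the 16 pools, large replicates 6 and 3 (63.5 and 1.40 CPM) and spontaneous replicate 3 (6.07 CPM), and no small pool exceeded 0.261 CPM. Large oocyte replicate 6, with 751 reads, was above every CC pool, and its cumulus marker sum of 3905 CPM was the second highest among oocyte pools after the 4149 CPM of small replicate 3, where PAPPA was 0.261 CPM. The exact permutation p from small to large oocytes was 0.379.

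STC1 (ENSBTAG00000001687), a PAPPA inhibitor, had a mean of 895 ± 644 CPM in CC (SD, n = 17) and of 232 ± 251 CPM in oocytes (SD, n = 16). Small CC pools held 165 to 1380 CPM (median 333), large pools 616 to 2522 CPM (median 795), and spontaneous pools 2252, 790, 831, 867 and 684 CPM. Of the 6 small pools, 4 lay below every large and spontaneous pool, and small replicates 2 and 3, at 1380 and 1033 CPM, lay above all of those but large replicate 2 and spontaneous replicate 1. From small to large the log2 fold change was 1.20 (standard error 0.456, interval 0.25 to 2.15, limma adjusted p = 0.999), and from small to spontaneous 1.27 (0.483, 0.25 to 2.28, limma adjusted p = 0.47). The exact permutation tests on the mean CPM gave 0.206 and 0.199. Both comparisons met the threshold without small replicate 2 (1.56 and 1.62, limma adjusted p = 0.987 and 0.243) and without small replicate 3 (1.47 and 1.54, limma adjusted p = 0.998 and 0.274), and with edgeR the estimates were 0.73 and 0.65 (adjusted p = 0.998 and 0.889). From large to spontaneous the log2 fold change was 0.06 (-0.65 to 0.78), and below 0 in 4 alternatives other than leaving out a pool, among them -0.04 after median-of-ratios scaling.

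In oocytes STC1 spanned a wide range within each classification, at 16.5 to 879 CPM in small (median 99.0), 41.3 to 573 CPM in large (median 159), and 135, 103, 572 and 22.3 CPM in spontaneous pools. No classification stood apart (exact permutation p = 0.907 for small and large, 0.914 for small and spontaneous, and 0.867 for large and spontaneous pools). The 3 highest pools, small replicate 3, large replicate 4 and spontaneous replicate 3, had cumulus marker sums of 4149, 3288 and 2774 CPM, and the 2 lowest, small replicate 4 and spontaneous replicate 4, had 770 and 683 CPM. Other pools departed from this. Large replicate 6 held 110 CPM of STC1 with 3905 CPM of the markers. Spontaneous replicate 2 held 103 CPM with 2137 CPM of the markers, and small replicate 2 held 376 CPM with 2132 CPM. Large replicate 1 had the lowest marker sum, 564 CPM, and 41.3 CPM of STC1. Retained transcripts with the pattern most like STC1 over the 16 oocyte pools were SERPINA14, PDGFRA and TMEM52 (Spearman rho 0.885, 0.877 and 0.862, one of them, PDGFRA, on the theca and stroma list), and over the 17 CC pools DOT1L, CDC20 and FADS2 (0.87, 0.841 and 0.833), as a description over pools that share scaling and depth.

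**Figure D3:**
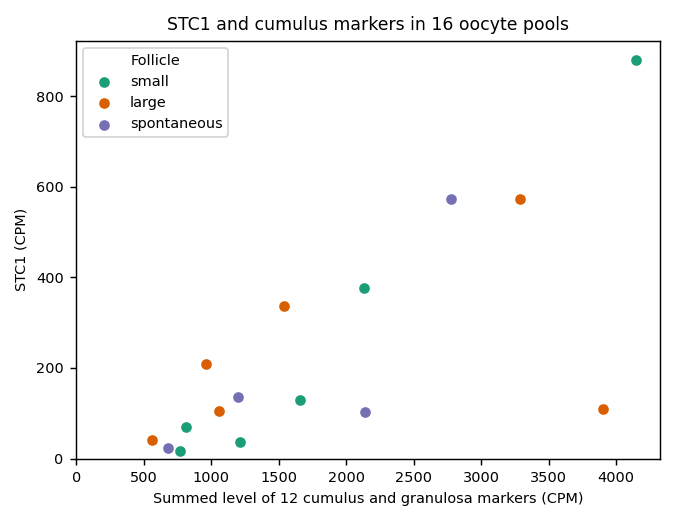
STC1 (vertical axis, CPM) against the summed level of 12 cumulus and granulosa markers (horizontal axis, CPM) in the 16 oocyte pools, coloured by classification. STC1 ran from 16.5 CPM in a pool with 770 CPM of markers to 879 CPM in the pool with 4149 CPM, and 1 large pool held 110 CPM of STC1 with 3905 CPM of markers. Spontaneous replicate 2 held 103 CPM with 2137 CPM of markers, and small replicate 2 held 376 CPM with 2132 CPM. Of the 12 markers, VCAN had the largest median in oocytes (863 CPM).

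STC2 (ENSBTAG00000001823), the other stanniocalcin that blocks PAPPA, was at or near 0 everywhere. In oocytes it was read in 2 of the 16 pools, both small (0.665 and 0.130 CPM), and in CC its highest value was 0.585 CPM, in spontaneous replicate 2. No CC pool had more than 3 reads, so a level up to about that limit was not detectable at this depth and no order of classifications could be read.

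Ordered by mean CPM within each gene and cell type, 2 of the 40 neighbouring pairs of classifications differed by more than the larger of their SDs. Both were of IGFBP4, spontaneous over small CC (32.8 and 21.4 CPM) and spontaneous over large oocytes (1.01 and 0 CPM).

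The ligands were measured beside their receptors. IGF2 was a CC transcript, at 139 to 461 CPM in small (median 356), 181 to 528 CPM in large (median 367), and 150, 206, 132, 263 and 290 CPM in spontaneous CC, and at most 17.1 CPM in an oocyte pool. Spontaneous CC pools lay in the lower part of the range. From large to spontaneous IGF2 met the threshold, as did 1.66% of the 9712 transcripts (log2 fold change -0.77, standard error 0.259, nominal p = 0.00848, limma adjusted p = 0.567, exact permutation p = 0.039). The threshold was no longer met without any 1 of large replicates 1 to 4 or spontaneous replicates 1 to 3 (nominal p up to 0.0321), nor with no filter, all 3 classifications in one fit or the replicate block, and the log2 fold change stayed between -0.95 and -0.62 as single pools were left out. IGF1 was close to absent, at 0 to 5.07 CPM in CC and with reads in 1 of the 16 oocyte pools (0.391 CPM). INS was not listed for CC and had at most 0.162 CPM in oocytes, and IGFALS, the acid-labile subunit of the plasma complex, had at most 3.64 CPM in oocytes and 0.307 CPM in CC. Of this list of 4 genes, 0 passed the filter in oocytes and 1 in CC.

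Among 6 other binding proteins and related genes, 2 passed the filter in each cell type. IGFBP7, a relative that binds IGFs weakly, held 122 to 311 CPM in small (median 193), 181 to 394 CPM in large (median 242), and 632, 1047, 375, 436 and 541 CPM in spontaneous CC. All 5 spontaneous pools lay above every small pool, where 0.911% of 16244 transcripts had no overlap in that comparison, and 4 of them lay above every large pool. The log2 fold change was 1.51 from small (standard error 0.272, nominal p = 3.16e-05, limma adjusted p = 0.0614, exact permutation p = 0.00433, which with 6 and 5 pools cannot be lower) and 1.20 from large (standard error 0.253, nominal p = 0.000182, limma adjusted p = 0.313, exact permutation p = 0.00866). Every alternative run left IGFBP7 past the threshold in both comparisons, with log2 fold changes of 1.29 to 1.66 and 0.98 to 1.35 as single pools were left out. The adjusted p depended on the method. From small and from large it was 0.0188 and 0.0361 with DESeq2, and 0.432 and 0.754 with edgeR. In limma it was 0.0343 and 0.653 with all 3 classifications in one fit, and 0.351 and 0.643 after median-of-ratios scaling. Spontaneous replicate 2, the pool at 1047 CPM, was also the one with the theca and stroma marker sum of 4334 CPM, and the other 4 spontaneous pools, at 375 to 632 CPM, had sums of 1265 to 1690 CPM beside 605 to 1756 CPM in small pools. CRIM1, with the highest mean CPM of the list in oocytes (lengths were not considered), held 20.1 to 94.8 CPM there, and no gene of the list met the threshold in oocytes.

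Of 8 other proteases and inhibitors, 3 passed the filter in CC and 5 in oocytes. From small to spontaneous CC 2 of the 3 met the threshold, where 2.38% of all 9712 retained transcripts did. The lists were written with earlier results of these data known. HTRA1, a secreted serine protease that can cut IGF binding proteins, held 45.9 to 112 CPM in small (median 85.3) and 168, 146, 108, 95.6 and 120 CPM in spontaneous pools (log2 fold change 0.74, standard error 0.244, limma adjusted p = 0.416). ADAM9, a membrane metalloprotease, held 57.0 to 102 CPM (median 75.1) and 126, 121, 88.6, 96.9 and 142 CPM (0.57, 0.193, limma adjusted p = 0.418). The ranges overlapped for both. Neither met the threshold after median-of-ratios scaling (0.58 and 0.41, limma adjusted p = 0.74 and 0.753), without mitochondrially encoded genes, or with edgeR or DESeq2. HTRA1 also missed it with no filter (limma adjusted p = 0.534) and without any 1 of small replicates 2, 3 and 4 or spontaneous replicates 1, 2 and 5 (nominal p up to 0.027), and ADAM9 without small replicates 1 to 4 or spontaneous replicates 1, 2 or 5 (nominal p up to 0.0307). PAPPA2, the paralog of PAPPA, was the reverse of it by cell type, with 0.327 to 19.7 CPM in all 16 oocyte pools and reads in 1 CC pool (0.908 CPM). CTSD had the highest mean CPM of the list in oocytes, at 8.68 to 161 CPM.

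The mannose 6-phosphate sorting list holds M6PR, the smaller mannose 6-phosphate receptor that shares ligands with IGF2R, and 3 genes that make the tag. All 4 passed the filter in both cell types. M6PR held 70.6 to 147 CPM in small (median 109), 100 to 224 CPM in large (median 125), and 166, 175, 183, 184 and 160 CPM in spontaneous CC. Every spontaneous pool lay above every small pool, where 0.911% of 16244 transcripts had no overlap in that comparison. The log2 fold change was 0.74 (standard error 0.182, nominal p = 0.000744, limma adjusted p = 0.262, exact permutation p = 0.00433). The threshold was met in each alternative, and the estimate was 0.59 after median-of-ratios scaling. IGF2R in the same comparison had 0.22 (interval -0.46 to 0.90). GNPTAB, an enzyme of the tag, had the highest mean CPM of the list in oocytes, at 170 to 293 CPM.

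Of 24 receptor adaptors and kinases, 19 passed the filter in oocytes and 18 in CC, and 0 met the threshold in any of the 6 comparisons, with median log2 fold changes of -0.01 to 0.08 in oocytes and 0.07 to 0.15 in CC. GRB14, an adaptor that binds and inhibits the insulin receptor, had the highest mean CPM of them in CC, at 321 to 1548 CPM, and had at most 26.0 CPM in oocytes, and SHC1 had the highest in oocytes, at 267 to 626 CPM. Of 3 IGF2 mRNA-binding proteins, 2 passed the filter in oocytes and 0 in CC, with none meeting the threshold. IGF2BP3 held 850 to 1326 CPM in every oocyte pool and at most 6.75 CPM in CC, where IGF2BP2 had the highest mean of the list (1.76 ± 1.22 CPM, SD, n = 17).

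**Figure D4:**
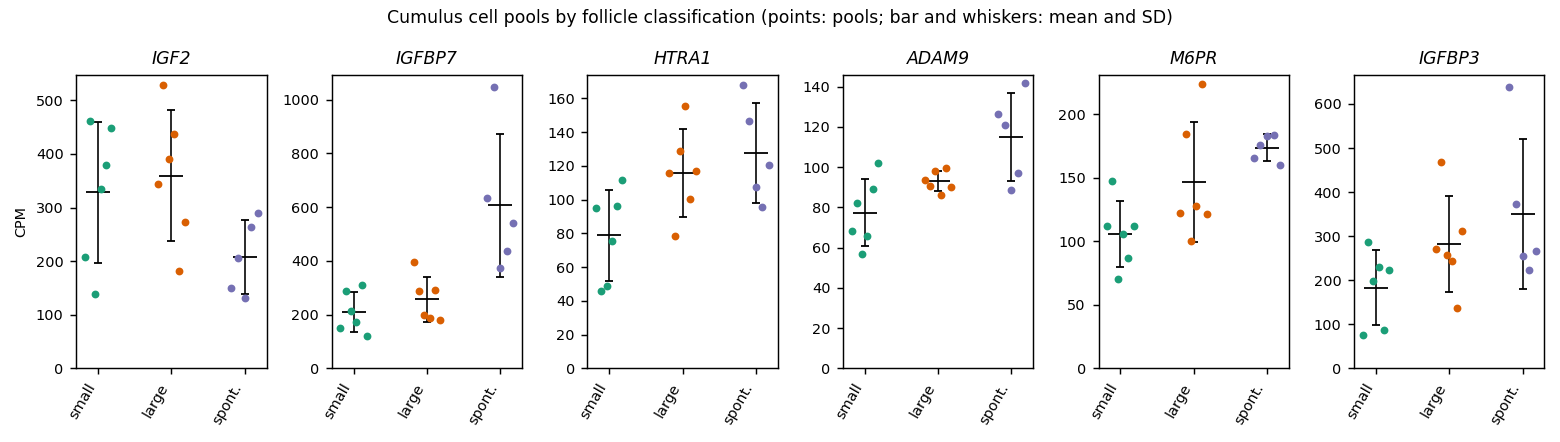
CPM (vertical axis) of IGF2, IGFBP7, HTRA1, ADAM9, M6PR and IGFBP3 in CC pools of the small, large and spontaneous classifications (horizontal axis), with points for pools and a bar and whiskers for mean and SD. The 5 spontaneous pools lay above all small pools for IGFBP7 (375 to 1047 against 122 to 311 CPM) and M6PR (160 to 184 against 70.6 to 147 CPM), and the ranges overlapped for the other 4 genes.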

How the data were processed

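RNA of pools of 4 oocytes or their CC was amplified to cDNA, and the authors used Hisat2 for alignment to UMD3.1 and featureCounts for counts per gene and deposited CPM, in a table of 16 oocyte and a table of 17 CC pools. No strand was stated for the counting, so overlapping genes cannot be told apart. Pools were grouped by their labels, and 0 columns were left unmatched. The 10 genes and the other lists were chosen with earlier results of these data known. The CPM gave back whole reads for 100% of values (within 0.05 reads).

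The filter, after the study's, kept 10076 oocyte transcripts (4 or more pools at 5 CPM or above) and 9712 CC transcripts (5 or more such pools). Pairs of classifications were tested with limma 3.58.1 (R 4.3.3) on log2(CPM + 1) with a trend, two-sided, adjusted by Benjamini-Hochberg over all retained transcripts. Fold changes on this scale understate those of low transcripts. Exact permutation tests compared mean CPM, two-sided, adjusted over all transcripts with a read. The study tested counts, so edgeR 4.0.16 and DESeq2 1.42.0 were run on recovered reads as alternatives, beside single fits that omitted each pool, blocked on the replicate number, joined all 3 classifications, scaled by median of ratios or without mitochondrially encoded genes, used a pseudocount of 0.1, or replaced the filter by none or by a mean of 1 CPM. The fits were tested on simulated data. Named beyond the 10 genes were IGF1, IGF2, genes of the lists that met the threshold, the gene with the highest mean CPM per list and cell type (without regard to length), and the 3 transcripts most like STC1. INS, IGFALS and PAPPA2 were named after their values were seen. Coordinates were left out because the authors' build was not used here.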

Additional observations from a re-analysis of the deposited data

Results flagged for a closer look

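Dixon's criterion was applied to the 51 groups of 4 to 6 pools that had at least 1 pool with more than 3 reads. The other 9 groups were not examined. For normally distributed values it flags about 1 in 20 groups. In 13 of the 51, the highest pool lay farther from its neighbour than it allows. In oocytes these were IGF1R in spontaneous replicate 4 (93.2 CPM, others 42.7 to 49.0), INSR in small replicate 6 (12.1 CPM, others 0 to 3.52), IGFBP2 in small replicate 5 (55.2 CPM, others 5.89 to 22.2), IGFBP5 in large replicate 4 (7.60 CPM, others 0 to 2.45), PAPPA in large replicate 6 (63.5 CPM, others 0 to 1.40) and spontaneous replicate 3 (6.07 CPM, others 0 to 0.0675), and STC2 in small replicate 2 (0.665 CPM, others 0 to 0.130). In CC these were IGF2R in large replicate 6 (139 CPM, others 73.3 to 90.1), IGFBP2 in small replicate 4 (2.43 CPM, others 0 to 0.642), IGFBP5 in small replicate 2 (86.2 CPM, others 1.05 to 26.95) and large replicate 1 (75.1 CPM, others 3.61 to 16.02), and STC1 in large replicate 2 (2522 CPM, others 616 to 968) and spontaneous replicate 1 (2252 CPM, others 684 to 867). No lowest pool met the criterion, and the causes were not tested. The levels were untransformed CPM, near 0 in several groups, so the 13 cannot be set against the rate of 1 in 20.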

How the results depend on the processing

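Of the 842 single refits of the 42 member comparisons, direction and side of the threshold held in 742, and 86 turned the sign of a change that was not called, 53 of them with 1 pool left out; 14 brought a gene past the threshold. In the 6 comparisons of the 5 called genes of the other lists, 88 of 120 refits kept the call, 32 lost it and none turned the sign.

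The number of members at the threshold went from 0 to 1 without a filter in both oocyte comparisons with spontaneous pools. The gene was IGFBP4, which had 0 reads in every small and large oocyte pool. From small to spontaneous CC the number was 1 (IGFBP3) with a mean of 1 CPM as the filter or all 3 classifications in one fit. With single pools left out it was 0 to 1 from small to large CC, 0 to 2 from small to spontaneous CC and 0 to 1 from large to spontaneous CC. Totals over all transcripts ranged from 48 to 114 against 66 (small to large oocytes), 41 to 133 against 78 (small to spontaneous oocytes), 67 to 181 against 95 (large to spontaneous oocytes), 52 to 137 against 79, 125 to 322 against 231 and 91 to 236 against 161 in the same CC comparisons. Deviations of same-numbered pools from their group means had correlations of -0.19 to 0.22, and the labels name no shared batch. The numbers were therefore not treated as pairs, though so few pools cannot exclude a shared collection batch. With the replicate block, members at the threshold were 2 from small to large CC (IGFBP3 at 0.69 and STC1 at 1.20, limma adjusted p = 0.93 and 0.656) among 96 transcripts, and 0 in the other 5 comparisons.

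Signs of log2 fold changes turned as follows, with no cause tested. With edgeR, from small to large oocytes IGF1R was -0.040, IGFBP2 -0.0086 and STC1 -0.14, and from small to spontaneous oocytes IGFBP2 -0.30 and STC1 -0.31. With DESeq2 the same were -0.048, -0.015, -0.14, -0.30 and -0.31, and IGFBP3 from large to spontaneous oocytes 0.0045. Median-of-ratios scaling gave -0.0051 for IGFBP2 from small to spontaneous oocytes, and the replicate block -0.50 for STC1. From small to large CC, INSR was -0.026 by median of ratios, -0.076 without mitochondrially encoded genes, -0.044 with edgeR and -0.045 with DESeq2, PAPPA -0.031 without mitochondrially encoded genes, and IGFBP5 -0.34 with edgeR and -0.34 with DESeq2. From small to spontaneous CC, IGF1R was -0.0018 by median of ratios, -0.013 without mitochondrially encoded genes, -0.020 with edgeR and -0.028 with DESeq2, IGF2R -0.063 with edgeR and -0.064 with DESeq2, IGFBP5 -0.013 and -0.0092, and PAPPA 0.10 with the replicate block. From large to spontaneous CC, STC1 was -0.036 by median of ratios, -0.056 with the block, -0.093 with edgeR and -0.094 with DESeq2.

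With single pools left out, ranges that crossed 0 were IGF1R -0.052 to 0.35, IGFBP3 -0.20 to 0.012 and INSR -0.76 to 0.028 from small to large oocytes; IGFBP2 -0.22 to 0.39, IGF2R -0.16 to 0.22, STC1 -0.69 to 0.85 and IGFBP3 -0.63 to 0.068 from small to spontaneous oocytes; and IGF2R -0.28 to 0.091, IGFBP3 -0.55 to 0.15 and STC1 -1.25 to 0.29 from large to spontaneous oocytes. In CC they were IGFBP5 -0.26 to 0.96, IGFBP4 -0.22 to 0.20, IGF1R -0.0083 to 0.29, INSR -0.20 to 0.24 and PAPPA -0.17 to 0.25 from small to large; PAPPA -0.27 to 0.19, IGF1R -0.045 to 0.26 and IGF2R -0.074 to 0.46 from small to spontaneous; and IGF1R -0.15 to 0.068, PAPPA -0.28 to 0.12, STC1 -0.24 to 0.35 and IGFBP5 -0.18 to 1.03 from large to spontaneous. Depth limits the reading of IGFBP2 and STC2 in CC and of IGFBP4, IGFBP5, PAPPA and STC2 in oocytes, where many pools had few or no reads.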
